A study of Mus musculus with 4 samples.

Results

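The genes that receive and relay an interferon signal were followed across control cells of a mouse colon tumour and 3 mutant lines. They are the receptor chains Ifnar1, Ifnar2, Ifngr1 and Ifngr2, the kinases Jak1, Jak2 and Tyk2, and Stat2 and Irf9, which belong to the transcription factor complex ISGF3. These 9 genes were taken by name from the 41457 rows of the count table, and all 9 passed the filter on low counts that left 13576 genes for testing. The M8, M32 and M83 lines carry the label ENU mutant, after the alkylating mutagen N-ethyl-N-nitrosourea, and the fourth sample is labelled control. Each has 1 column of counts, called a library here, although the design text speaks of triplicates. All 4 samples were tumour cells labelled colon and grown in RPMI, with no interferon or other treatment named. Neither the labels nor the file state the strain, the age of the animal, the mutated genes or whether a line is 1 clone.

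Type I interferons bind the Ifnar1 and Ifnar2 chains, which carry the kinases Tyk2 and Jak1 on their cytoplasmic tails. The kinases phosphorylate Stat2, which joins Irf9 in ISGF3, enters the nucleus and binds the interferon-stimulated response element of antiviral genes. Interferon gamma binds Ifngr1 and Ifngr2, uses Jak1 and Jak2, and acts mainly at gamma-activated sites. In tumour cells the pathway raises antigen presentation, and Stat2 and Irf9 are themselves interferon-inducible.

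Total counts lay between 27312207 (M32) and 28879954 (M8) in the lines, against 25818148 in control, and levels are given as CPM, counts per 1000000 counts of the library after scaling with TMM factors. Of the 8 epithelial markers checked only Krt8, Krt18 and Krt20 passed the filter, while Epcam and Cdx2 stood at 0 counts throughout (a count of 0 leaves room for up to 0.118 CPM in control). Cdh1, the other defining epithelial marker, had at most 4 counts in a library. Krt20 stood at 116 CPM in M8, 37.2 in M32, 127 in M83 and 75.0 in control. Krt18 stood at 63.0, 36.6 and 31.5 CPM in the lines and 27.8 in control, and Krt8 had at most 22 counts in a library. The 6 fibroblast and mesenchyme markers summed to 7149 CPM in M8, 8020 in M32 and 7749 in M83, against 6682 in control, a sum carried by Vim and Col1a2. Thy1, also on this list, had 0 counts in every library. Singly, Col1a1 was at 2.07 in M8, 2.86 in M32 and 2.62 in M83 relative to control, Pdgfrb at 2.64, 5.19 and 1.19, and Pdgfra at 2.08, 1.35 and 2.18, and their part in the results was not tested. The 6 leukocyte markers summed to 1.30 CPM in M8, 1.62 in M32, 1.52 in M83 and 2.00 in control, with Ptprc, which marks all leukocytes, at 1, 2 and 0 counts in the lines and 4 in control. Fewer cells of a type and less RNA per cell cannot be told apart in such libraries.

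The promoters of the 2 ISGF3 genes are shown because these genes differed most between libraries, and those of Ifnar1 and Ifnar2 because they hold the other motif searched. The sequences are from RefSeq (GRCm38.p6), 250 bases before to 50 after each annotated start, read 5′ to 3′ on the gene's strand. Capitals mark GAAA and its direct repeat with any NN between the copies, the core of the interferon-stimulated response element, or TTCNNNGAA, the core of the gamma-activated site, searched on both strands. The second motif is its own reverse complement, so each match lies on both strands, and no match overlapped one of the other motif.
Stat2, chr10:128270248-128270547, plus strand: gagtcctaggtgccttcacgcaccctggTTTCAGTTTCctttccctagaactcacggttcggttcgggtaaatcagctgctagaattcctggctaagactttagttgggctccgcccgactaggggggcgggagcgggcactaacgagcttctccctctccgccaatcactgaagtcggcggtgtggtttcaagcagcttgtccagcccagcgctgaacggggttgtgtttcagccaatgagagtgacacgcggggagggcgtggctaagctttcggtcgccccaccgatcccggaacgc
Irf9, first start, chr14:55603735-55604034, plus strand: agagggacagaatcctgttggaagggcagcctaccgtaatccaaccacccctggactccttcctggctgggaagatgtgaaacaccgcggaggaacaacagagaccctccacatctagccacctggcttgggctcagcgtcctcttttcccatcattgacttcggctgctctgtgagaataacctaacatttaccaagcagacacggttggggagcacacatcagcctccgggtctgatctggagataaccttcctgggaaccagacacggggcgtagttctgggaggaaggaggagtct
Irf9, second start, chr14:55604329-55604628, plus strand: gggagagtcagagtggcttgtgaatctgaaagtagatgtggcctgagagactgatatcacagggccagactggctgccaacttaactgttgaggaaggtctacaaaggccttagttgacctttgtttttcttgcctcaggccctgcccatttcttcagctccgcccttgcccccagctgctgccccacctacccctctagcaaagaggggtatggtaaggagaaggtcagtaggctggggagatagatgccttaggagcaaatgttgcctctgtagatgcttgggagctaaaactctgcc
Ifnar1, chr16:91484965-91485264, plus strand: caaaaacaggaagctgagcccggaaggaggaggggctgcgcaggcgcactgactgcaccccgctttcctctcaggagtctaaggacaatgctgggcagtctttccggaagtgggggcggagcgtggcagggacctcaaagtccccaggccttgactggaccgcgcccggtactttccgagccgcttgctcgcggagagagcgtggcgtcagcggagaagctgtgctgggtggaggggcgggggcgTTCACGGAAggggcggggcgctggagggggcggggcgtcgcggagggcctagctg
Ifnar2, chr16:91372533-91372832, plus strand: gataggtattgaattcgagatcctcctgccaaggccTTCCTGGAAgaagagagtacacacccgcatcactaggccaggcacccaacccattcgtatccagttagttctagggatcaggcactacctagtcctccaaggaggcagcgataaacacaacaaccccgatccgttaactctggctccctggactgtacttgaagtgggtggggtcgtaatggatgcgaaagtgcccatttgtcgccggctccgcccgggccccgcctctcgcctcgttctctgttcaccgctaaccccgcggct

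All 9 genes had a promoter in the table, 10 in all, because Irf9 has 2 starts. The GAAA repeat occurred in 1 of the 9 genes, as TTTCAGTTTC on the minus strand of the Stat2 promoter, from base 29 to base 38 of the window. It occurred in 3.44% of all 32851 promoters in the table. TTCNNNGAA occurred in Ifnar1 as TTCACGGAA (bases 246 to 254) and in Ifnar2 as TTCCTGGAA (bases 37 to 45), against 8.30% of all promoters. The windows of Irf9, Ifngr1, Ifngr2, Jak1, Jak2 and Tyk2 held neither string of letters, which says nothing about binding elsewhere.

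The first comparison set the mutant lines, taken as a group, against control. None passed in edgeR's quasi-likelihood test (0 of 9 at an adjusted p under 0.05, 0 of 9 at an unadjusted p under 0.05, which 3.3% of tested genes reached), and DESeq2 likewise called 0 of 9 at either threshold. Over all 13576 tested genes edgeR called 0.00737% and DESeq2 0.318% of the genes to which it gave an adjusted p. The fitted log2 difference of the lines from control lay between -0.25 for Tyk2 (SE 0.326) and 0.39 for Jak2 (SE 0.312), with an edgeR adjusted p of 1.00 for each of the 9. These p-values rest on the spread among the mutant lines alone, and the lone control library is assumed to vary like them. The widest errors belonged to Stat2 (log2 difference 0.35, SE 0.690) and Irf9 (-0.20, SE 0.624), whose values differed most from line to line. Without M8 the Irf9 difference was 0.16 and that of Stat2 0.75, without M32 that of Jak1 was -0.022 and without M83 that of Ifngr1 was -0.011. Only Ifngr2 and Jak2 lay above control in all 3 lines (2 of 9, against 23.3% of tested genes), and 0 of 9 lay below control in all 3 lines, against 21.3%. Without M8, 5 of the 9 lay above control in both remaining lines. Without M32, and likewise without M83, 2 of the 9 lay below control in the remaining lines. A condition on 2 lines is met more easily than that on all 3. No share of all tested genes stands beside these counts for 2 lines, so they are not set against a background.

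**Figure D1:**
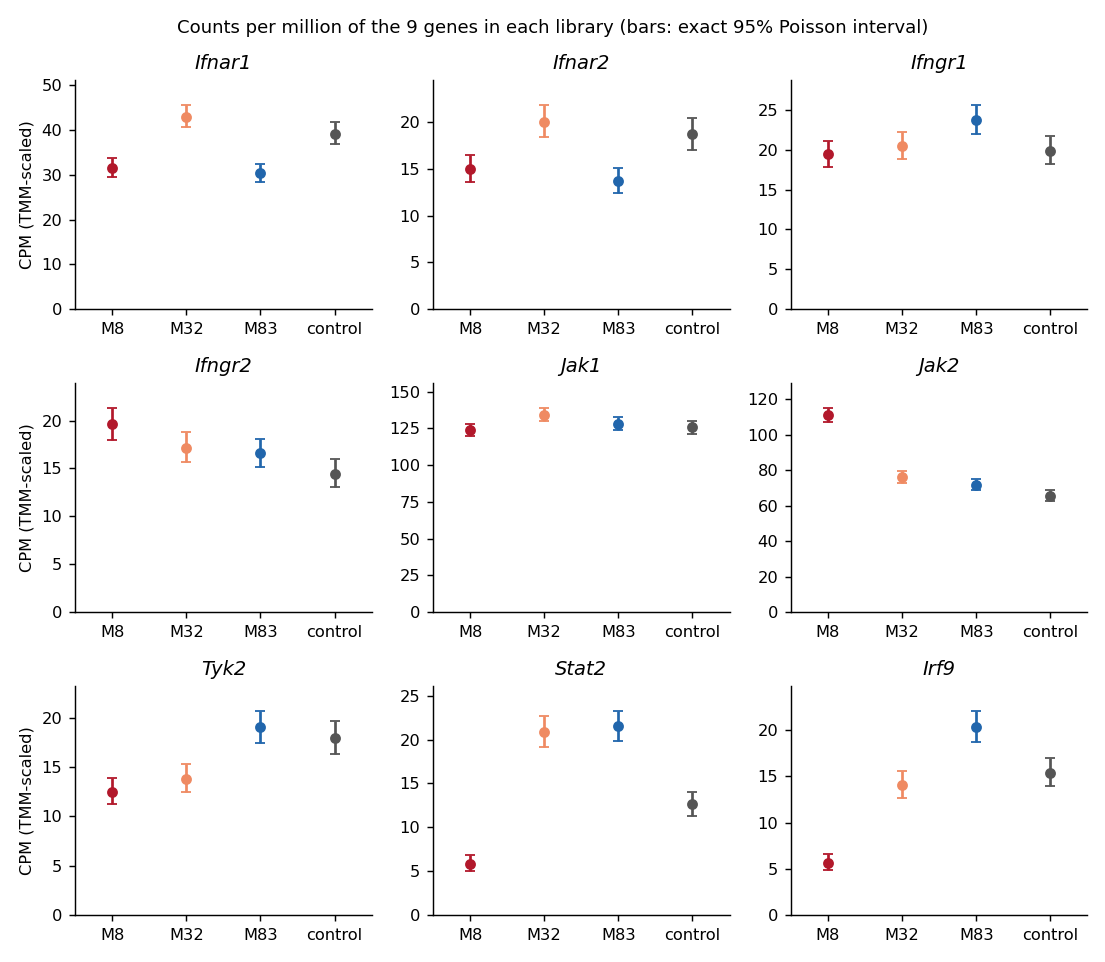
CPM (TMM-scaled, vertical axes from 0) of the 9 genes in the M8, M32, M83 and control libraries, with exact 95% Poisson intervals that cover counting error only. Stat2 and Irf9 stand at 5.83 and 5.66 CPM in M8, below their other libraries, and Jak2 stands at 111 CPM in M8, above its others.

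Each line was then set against control, and against the other lines, with no replicate and so no test. A gene was called when it differed at least 2-fold, had at least 50 counts in the higher library and had an exact 95% binomial interval of the ratio that left out 1. By this rule Stat2 and Irf9 were lower in M8 than in control (2 of 9, against 1.66% of tested genes), and 0 of 9 were higher (3.05%). In M32 and M83 0 of 9 were called against control, where 3.99% of tested genes were higher and 0.943% lower in M32, and 4.24% were higher and 1.1% lower in M83. The 9 genes had a median ratio of 0.804 (M8), 1.07 (M32) and 1.09 (M83), beside 1.01, 1.00 and 1.00 over all tested genes. Intervals cover counting error only, so they left out 1 for many genes. In M8 the interval lay above 1 for 2 of the 9 (32.9% of tested genes) and below it for 5 (28.7%), in M32 above for 5 (29.5%) and below for 1 (29.8%), and in M83 above for 4 (31.3%) and below for 2 (31%). With a 1.5-fold rule Jak2 was also higher in M8 (1 of 9, 7.06% of tested genes), Stat2 was higher in M32 (1 of 9, 8.11%) and in M83 (1 of 9, 8.81%), and no further gene was lower (5.73%, 3.7% and 5.33% of tested genes in M8, M32 and M83).

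**Figure D2:**
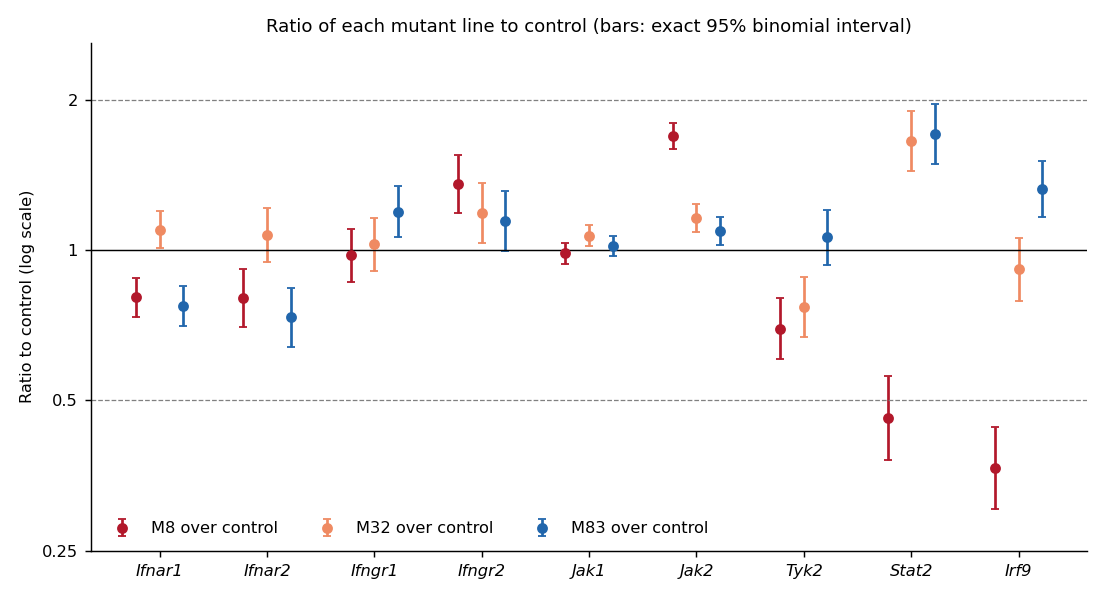
Ratio of M8, M32 and M83 to control for each gene on a log axis, with exact 95% binomial intervals and dashed lines at 2-fold either way. Only Stat2 (0.462) and Irf9 (0.367) in M8 pass below the lower line, and no ratio passes above the upper one.

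Stat2 encodes the ISGF3 subunit with the strong transactivation domain and lies on chromosome 10 (128270559 to 128292849, plus strand, GRCm38, protein-coding, ENSMUSG00000040033). It had 166 counts in M8, 566 in M32 and 622 in M83, against 322 in control. In scaled levels this was 5.83, 20.9 and 21.5 CPM in the lines and 12.6 CPM in control. The M8 library was the lowest and M32 and M83 lay close together above control, so the lines fell on both sides of it. The ratio to control was 0.462 in M8 (95% interval 0.381 to 0.559), 1.65 in M32 (1.44 to 1.90) and 1.70 in M83 (1.49 to 1.96). Between lines, where control plays no part, the ratio of M8 to M83 was 0.271 (0.227 to 0.322) and that of M8 to M32 was 0.279 (0.234 to 0.333). M32 and M83 were not distinguishable at this depth, at a ratio of 0.970 (0.864 to 1.09). The 649 tested genes of chromosome 10 had a median ratio to control near 1 in each line, at 1.00 in M8, 0.960 in M32 and 1.04 in M83.

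Irf9, the DNA-binding subunit of ISGF3, lies on chromosome 14 (55603571 to 55610030, plus strand, ENSMUSG00000002325). It had 161 counts in M8, 382 in M32 and 589 in M83, against 393 in control, or 5.66, 14.1 and 20.4 CPM in the lines and 15.4 CPM in control. M8 was again the lowest, while M32 lay at the control level and M83 above it. The ratio to control was 0.367 in M8 (0.304 to 0.442), 0.914 in M32 (0.792 to 1.06) and 1.32 in M83 (1.16 to 1.51). Between lines it was 0.278 for M8 over M83 (0.232 to 0.331), 0.402 for M8 over M32 (0.332 to 0.484) and 0.692 for M32 over M83 (0.606 to 0.788). Stat2 and Irf9 were thus the 2 of 9 called lower in M8 than in M83 (4.16% of tested genes) and also the 2 of 9 called lower in M8 than in M32 (3.04%). None of the 9 was called higher in M8 than in M83 (2.48%) or than in M32 (1.75%). Between M32 and M83 0 of 9 were called, where 2.64% of tested genes were higher and 2.69% lower in M32.

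Irf9 overlaps Rnf31, the gene of a ubiquitin ligase subunit, on the same strand, and 1.82% of the 50-base words in its transcripts occur in transcripts of other genes, most often Rnf31. The counting rule for such reads is not given in the sources used here. Rnf31 had 705 counts in M8, 711 in M32 and 958 in M83, against 714 in control, a ratio of 0.885 in M8 (0.796 to 0.983), 0.937 in M32 (0.843 to 1.04) and 1.18 in M83 (1.07 to 1.31). The Rnf31 ratio in M8 was thus much nearer to 1 than that of Irf9.

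Stat2 and Irf9 did not keep a fixed proportion. Per kilobase of exons, the level of Stat2 was 0.937 times that of Irf9 in M8, 1.35 times in M32 and 0.960 times in M83, against 0.745 times in control. Both genes were lowest in M8 and highest in M83.

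Stat2 and Irf9 spread most widely of the 9 over the 4 libraries. The highest library exceeded the lowest 3.69-fold for Stat2 and 3.60-fold for Irf9. Of all 13576 tested genes, many of them with low counts, 13.3% spread at least as widely as Stat2 and 13.6% as Irf9, and the median spread was 1.53-fold. Of the 8121 tested genes with a mean level at least that of the lowest of the 9, which takes in far more abundant genes, the shares were 1.18% for Stat2 and 1.24% for Irf9, and the median spread was 1.37-fold. Jak2 spread 1.69-fold, Tyk2 1.52-fold, Ifnar2 1.46-fold, Ifnar1 1.42-fold, Ifngr2 1.36-fold, Ifngr1 1.22-fold and Jak1 1.08-fold. In 5 of the 9 genes the lowest library was M8 (26.5% of tested genes), in 2 it was M83 (27.6%), in 2 control (23.3%) and in 0 M32 (22.6%).

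Jak1, the kinase shared by both interferon receptors, was the steadiest of the 9. It lies on chromosome 4 (101152367 to 101265282, minus strand, ENSMUSG00000028530) and had 3531 counts in M8, 3644 in M32 and 3708 in M83, against 3209 in control. Its levels of 124, 134 and 128 CPM in the lines and 126 CPM in control gave ratios of 0.986 (0.940 to 1.03), 1.07 (1.02 to 1.12) and 1.02 (0.972 to 1.07). Of all tested genes 98.6% spread at least as widely as Jak1, and of the 8121 genes at or above the level of the lowest of the 9 it was 97.7%.

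Jak2, the kinase of the Ifngr2 chain, was highest in M8. On chromosome 19 (29251828 to 29313080, plus strand, ENSMUSG00000024789), it had 3159 counts in M8, 2059 in M32 and 2074 in M83, against 1674 in control. The levels were 111, 75.9 and 71.7 CPM in the lines and 65.6 CPM in control, so M8 stood apart and the other lines lay little above control. Against control these were 1.69 in M8 (1.59 to 1.80), 1.16 in M32 (1.08 to 1.23) and 1.09 in M83 (1.02 to 1.17). M8 was also above the other lines, 1.55-fold over M83 (1.46 to 1.64), which the 1.5-fold rule called (8.75% of tested genes), and 1.46-fold over M32 (1.38 to 1.55). The 458 tested genes of chromosome 19 had a median ratio of 1.14 (M8), 1.10 (M32) and 1.01 (M83), and the part of this in the Jak2 values was not tested.

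Tyk2, the kinase of the Ifnar1 chain, lies on chromosome 9 (21104068 to 21131243, minus strand, ENSMUSG00000032175). It had 356 counts in M8, 375 in M32 and 550 in M83, against 458 in control, and levels of 12.5, 13.8 and 19.0 CPM in the lines and 18 CPM in control. M8 and M32 were lower than control, at ratios of 0.697 (0.605 to 0.802) and 0.770 (0.670 to 0.885), and M83 was not distinguishable from it at 1.06 (0.934 to 1.20). M8 was below M83 at 0.657 (0.574 to 0.753), which the 1.5-fold rule called (10.2% of tested genes). The antisense gene 1700084C06Rik overlaps Tyk2 and had at most 4 counts in a library. Reads of both strands cannot be told apart here, because no strand setting is given. Per kilobase, the level of Jak1 was 9.42 times that of Tyk2 in M8, 9.23 times in M32 and 6.40 times in M83, against 6.66 times in control. In M8 alone Jak1 was below Jak2 per kilobase (0.778 times), against 1.23 times in M32, 1.24 times in M83 and 1.33 times in control. This turned with the longest annotated transcript as length, by which Jak1 was 1.15 times Jak2 in M8, 1.81 times in M32 and 1.83 times in M83, against 1.97 times in control.

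The type I receptor chains Ifnar1 and Ifnar2 varied together. Ifnar1, on chromosome 16 (91485238 to 91507441, plus strand, ENSMUSG00000022967), had 897 counts in M8, 1166 in M32 and 877 in M83, against 1000 in control, or 31.5, 43.0 and 30.3 CPM in the lines and 39.2 CPM in control. Ifnar2, the chain that binds the ligand most tightly (91372783 to 91405589 on the same chromosome and strand, ENSMUSG00000022971), had 427 counts in M8, 544 in M32 and 397 in M83, against 477 in control. Its levels were 15, 20.1 and 13.7 CPM in the lines and 18.7 CPM in control. For both genes M8 and M83 were lower than control and M32 slightly above it. The Ifnar1 ratio was 0.804 in M8 (0.734 to 0.881), 1.10 in M32 (1.01 to 1.19) and 0.774 in M83 (0.706 to 0.848). That of Ifnar2 was 0.802 in M8 (0.702 to 0.916), 1.07 in M32 (0.947 to 1.22) and 0.734 in M83 (0.641 to 0.841). Per kilobase the Ifnar1 level was 1.18 times that of Ifnar2 in M8, 1.20 times in M32 and 1.24 times in M83, against 1.17 times in control. Of the 50-base words of Ifnar2, 7.89% also occur in transcripts of other genes, most often Gm21970. That gene overlaps Ifnar2 on the same strand and had 0 counts in each library.

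The interferon gamma receptor chains followed another order. Ifngr1, the ligand-binding chain on chromosome 10 (19591949 to 19610229, plus strand, ENSMUSG00000020009), had 553 counts in M8, 555 in M32 and 687 in M83, against 508 in control, or 19.4, 20.5 and 23.8 CPM in the lines and 19.9 CPM in control. Only M83 was distinguishable from control, at a ratio of 1.19 (1.06 to 1.34), beside 0.976 in M8 (0.863 to 1.10) and 1.03 in M32 (0.910 to 1.16). Ifngr2, the signalling chain on chromosome 16 (91547072 to 91565623, plus strand, ENSMUSG00000022965), had 558 counts in M8, 465 in M32 and 479 in M83, against 369 in control. The levels were 19.6, 17.1 and 16.6 CPM in the lines and 14.5 CPM in control, with control the lowest library. Against control it stood at 1.36 in M8 (1.19 to 1.55), 1.19 in M32 (1.03 to 1.36) and 1.15 in M83 (0.998 to 1.32). Ifngr2 and its kinase Jak2 were thus both highest in M8 and lowest in control, and they were the 2 genes above control in all 3 lines.

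Ifnar2, Il10rb, Ifnar1 and Ifngr2 form a receptor cluster on chromosome 16, a chromosome whose genes were lower in M83. The 397 tested genes of chromosome 16 had a median ratio to control of 0.692 in M83, with 82.4% of them below control, against 1.00 in M8 and 0.978 in M32. Among the 20 chromosomes with at least 100 tested genes this was the lowest median in M83, and the next lowest was chromosome 13 with a median log2 ratio of -0.20, against -0.53 for chromosome 16. Within 1 Mb of the start of Ifnar1, 21 genes had at least 50 counts in a library, and their median ratio in M83 was 0.648. Of these, 20 lay below control in M83 and only Ifngr2 above it. The lowest were Slc5a3, a myo-inositol transporter gene, at 0.436 (0.392 to 0.486) and Mrps6, a mitochondrial ribosomal protein gene, at 0.452 (0.417 to 0.489), and their annotated spans overlap on the same strand, so reads may be split between them. The neighbours Gart, a purine synthesis gene, and Son, a splicing cofactor gene, stood at 0.551 (0.529 to 0.574) and 0.626 (0.605 to 0.647). Ifnar1 and Ifnar2 lay above the chromosome's median in M83, at 0.774 and 0.734. Il10rb, a chain shared by other class II cytokine receptors, was not distinguishable from control in M83 at 0.963 (0.805 to 1.15), and Tmem50b beside Ifngr2 stood at 0.972 (0.875 to 1.08). What the lower level of the chromosome's genes in M83 contributed to the receptor values was not tested.

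In M8 the same cluster split. Ifnar1 and Ifnar2 were below control, while Il10rb was above it at 1.34 (1.13 to 1.58), close to Ifngr2 at 1.36. The 21 genes of the window had a median ratio of 1.01 in M8 and ran from 0.722 for Synj1 to 1.55 for Slc5a3. In M32 their median was 0.891, and the 4 receptor genes lay between 1.07 (Ifnar2) and 1.24 (Il10rb, 1.04 to 1.47). Il10rb was the highest of the 21 genes in M32.

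**Figure D3:**
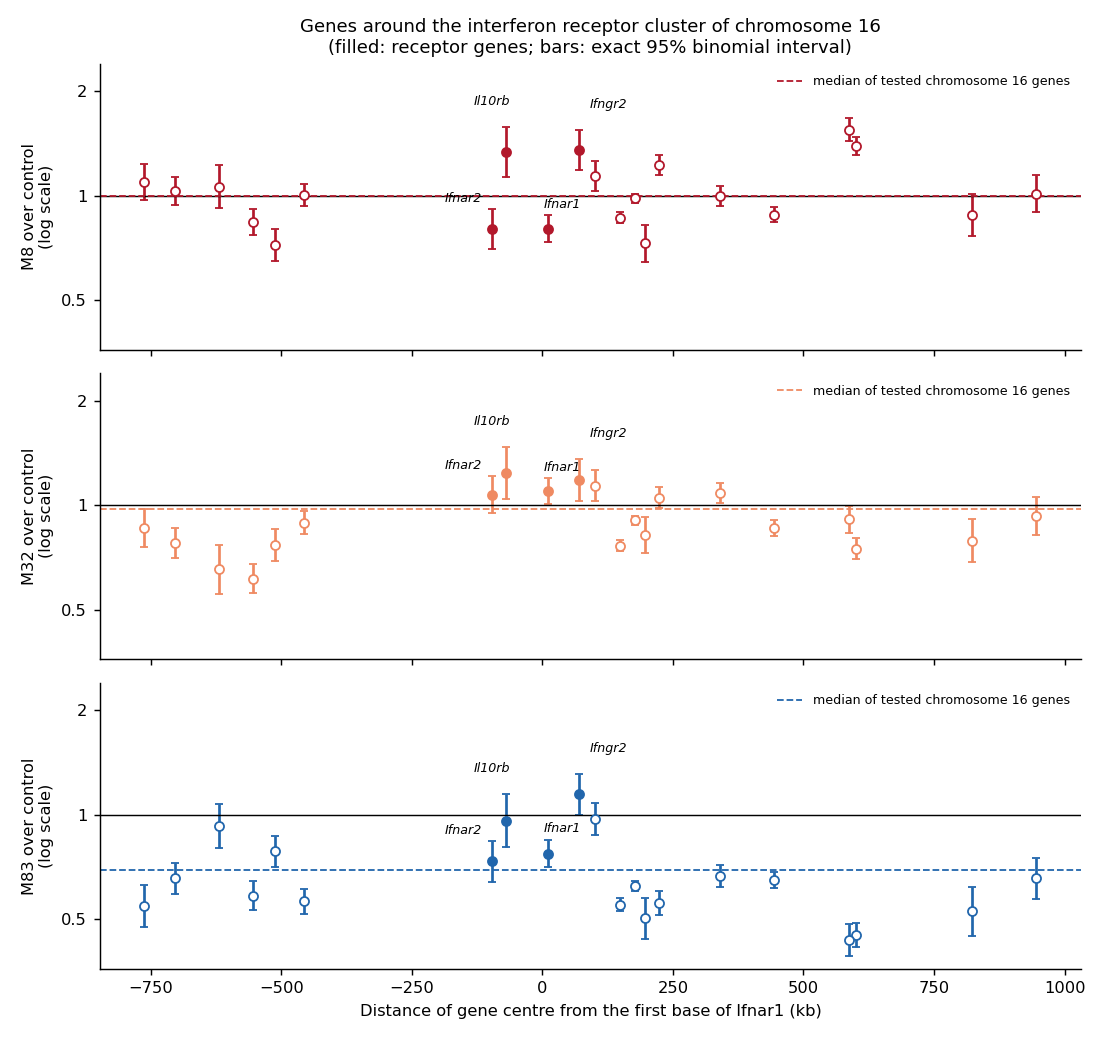
Ratio to control (log axis) of the 21 genes within 1 Mb of the start of Ifnar1, by the distance of their centre from it, in M8, M32 and M83, with exact 95% binomial intervals. In M83 20 of 21 genes lie below 1, around the dashed median of the chromosome's 397 tested genes (0.692), and Ifngr2 lies at 1.15.

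Levels of different genes were compared as CPM per kilobase of annotated exons. Jak1 was the highest in M32, M83 and control, at 18.6, 17.7 and 17.4 CPM per kilobase, and Jak2 the highest in M8, at 22.1. By the longest annotated transcript Jak1 was the highest in M8 too, at 25.3 against 22.1 for Jak2. The means of the lines were 17.8 ± 0.719 for Jak1, 17.1 ± 4.28 for Jak2, 7.45 ± 0.795 for Ifngr1, 5.88 ± 1.18 for Ifnar1, 4.89 ± 1.01 for Ifnar2 and 4.72 ± 0.428 for Ifngr2 (SD, n = 3). Those of Stat2, Irf9 and Tyk2 were 2.71 ± 1.5, 2.48 ± 1.37 and 2.20 ± 0.502. Over the 4 libraries the ranges of Jak1 and Jak2 overlapped, those of Jak2 and Ifngr1 did not, and those of the 4 receptor chains overlapped from neighbour to neighbour. Ifngr2 and Stat2 did not overlap, and Stat2, Irf9 and Tyk2 overlapped. The order of the means was the same by the longest transcript, but the ranges of Jak1 and Jak2 and those of Ifnar1 and Ifnar2 then did not overlap, and those of Ifngr2 and Stat2 did. In control the last 3 stood in the order Irf9 (2.86), Tyk2 (2.62) and Stat2 (2.13), and in M8 Stat2 was the lowest of the 9 at 0.984, below Irf9 at 1.05.

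**Figure D4:**
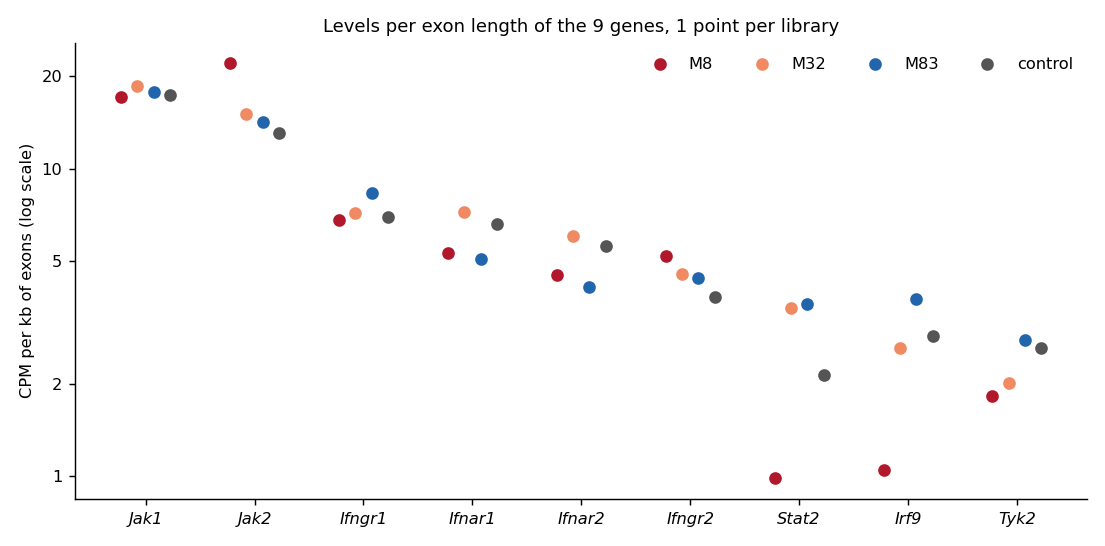
CPM per kilobase of exons on a log axis for each of the 9 genes in M8, M32, M83 and control, with genes ordered by the mean of the lines. Jak1 and Jak2 lie between 13.0 and 22.1, the receptor chains between 3.84 and 8.35, and the M8 points of Stat2 and Irf9 lie at 0.984 and 1.05, below their other libraries.

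The rest of the pathway was read from gene lists. None of their genes passed in edgeR, so levels are given as ratios of single lines to control. Of 21 interferon ligand genes, 18 had 0 counts in every library and no library held more than 3 counts of any. Among the other class II receptor chains, Ifnlr1 and Il10ra were at 0 in every library and only Il10rb, Il20rb and the tissue factor gene F3 passed the filter. F3 had ratios of 1.13 in M8 (0.979 to 1.30), 1.20 in M32 (1.04 to 1.38) and 1.21 in M83 (1.06 to 1.39). Among the other JAK and STAT genes, Stat3, the STAT of the gp130 receptors, was called in no line and stood at 1.41 in M8 (1.29 to 1.53), 1.13 in M32 (1.03 to 1.24) and 1.84 in M83 (1.69 to 2.00). Stat6, the interleukin-4 STAT, stood at 0.733 (0.695 to 0.773), 0.848 (0.806 to 0.893) and 1.20 (1.14 to 1.26).

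Among the 5 other tested IRF genes 1 was called lower in M8 (1.66% of tested genes) and 1 higher in M83 (4.24%). In M32 0 of the 5 were called (3.99% higher, 0.943% lower). The gene called was Irf7, the interferon-inducible amplifier of type I interferon production. Against control it stood at 0.126 in M8 (0.0838 to 0.184), at 1.06 in M32 (0.885 to 1.28) and 3.25 in M83 (2.80 to 3.79). Irf1, Irf2 and Irf3 stayed within 0.760 (Irf2 in M8, 0.683 to 0.846) and 1.16 (Irf1 in M83, 1.02 to 1.33). Irf5, with 6 to 19 counts in a library, stood at 0.717 in M8 (0.246 to 2.02), 0.564 in M32 (0.169 to 1.71) and 1.68 in M83 (0.742 to 4.04).

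Of 19 negative regulators 1 was lower in M8 (1.66% of tested genes), and 1 was higher in M32 (3.99%) and in M83 (4.24%). In M32 and M83 a count of 1 of 19 is close to the share of all tested genes. In each case this was Usp18, an interferon-inducible protease that binds Ifnar2 and blocks Jak1 there. Usp18 had 11 counts in M8, 189 in M32 and 346 in M83, against 88 in control, a ratio of 0.112 in M8 (0.0540 to 0.210), 2.02 in M32 (1.56 to 2.63) and 3.47 in M83 (2.74 to 4.44). Its lines thus took the same sides of control as those of Stat2, over a wider range. Ptpn6, the gene of the phosphatase SHP-1, was called lower in M83 (1 of 19, against 1.1% of tested genes). It had 47 counts in M83, 218 in M8 and 209 in M32, against 257 in control, a ratio of 0.161 in M83 (0.116 to 0.221). Socs2 and Socs6, inhibitors of cytokine signalling, were at 1.53 (1.33 to 1.77) and 1.69 (1.58 to 1.80) in M83. The 19 had a median ratio of 1.05 (M8), 0.926 (M32) and 0.980 (M83).

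Of 9 tested receptors for other cytokines that use the same kinases, 1 was called higher in M8 (3.05% of tested genes), 2 higher (3.99%) and 1 lower (0.943%) in M32, and 0 in M83 (4.24% higher, 1.1% lower). The 9 had a median ratio of 1.49 (M8), 0.927 (M32) and 1.78 (M83), and these medians include genes with few counts. Il11ra1 was at 2.19 in M8 (1.68 to 2.87) and 2.14 in M32 (1.64 to 2.81). Il6st, which encodes gp130, was at 2.06 in M32 (1.96 to 2.16), and at 1.15 in M8 (1.09 to 1.21) and 1.78 in M83 (1.70 to 1.87). Il4ra had 1197 counts in M8, 316 in M32 and 1047 in M83, against 680 in control, and was called lower in M32 at 0.437 (0.381 to 0.50). Il12rb1 stood at 0.519 in M83 (0.386 to 0.692).

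Genes that ISGF3 is known to induce lay, by their median, on the same side of control as Stat2 in each line. In a list of 24 such genes 16 were called lower in M8 (1.66% of tested genes) and 0 higher, 4 were called higher in M32 (3.99%) and 7 in M83 (4.24%). The median of the 24 ratios was 0.234 for M8, 1.58 for M32 and 1.70 for M83, where Stat2 stood at 0.462, 1.65 and 1.70. Irf9 took the same sides in M8 (0.367) and M83 (1.32), but stood at 0.914 in M32 (0.792 to 1.06). Oas3, an oligoadenylate synthetase gene, was at 0.113 in M8 (0.0824 to 0.151), 1.76 in M32 (1.56 to 1.99) and 3.33 in M83 (2.99 to 3.73). Ifi44 was at 0.100 (0.0533 to 0.175), 3.06 (2.50 to 3.77) and 1.87 (1.51 to 2.33) in the same lines, and Cmpk2 at 0.0908 (0.0379 to 0.188), 2.33 (1.79 to 3.07) and 2.10 (1.61 to 2.77). Cmpk2 had only 8 counts in M8. Like Rsad2 it lies on chromosome 12, which had the lowest chromosome median in M8 (log2 ratio -0.52), and the part of this was not tested. Oas2, another oligoadenylate synthetase gene, was at 0.0363 in M8 (0.0196 to 0.0617) and 1.72 in M83 (1.51 to 1.96), but at 0.924 in M32 (0.794 to 1.08). It was among the 4 of the 24 genes below control in M32, with Oasl1, Rsad2 and Ifih1. All ratios share the control library.

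**Figure D5:**
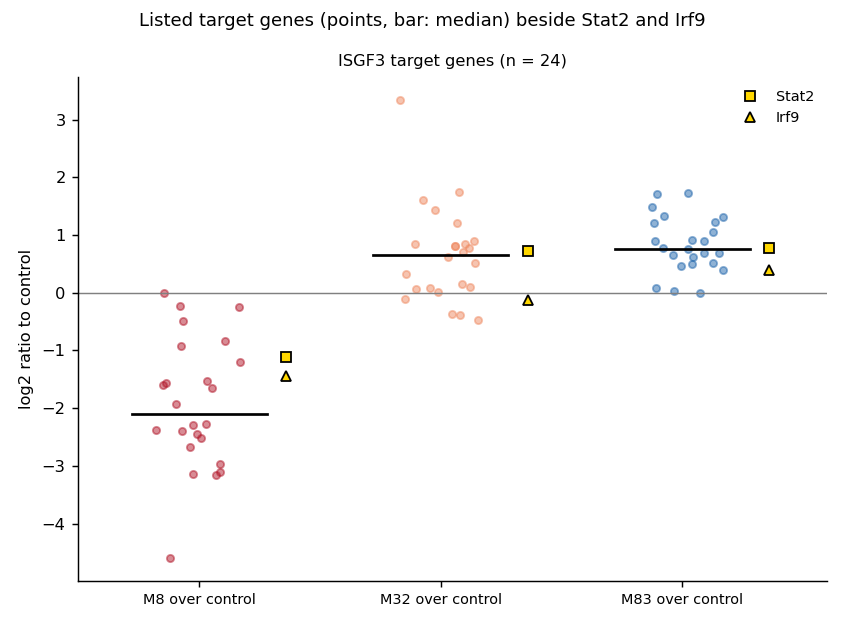
Log2 ratio to control of the 24 tested ISGF3 target genes (points, black bar at the median) in M8, M32 and M83, with Stat2 and Irf9 as gold symbols. In M8 the median (ratio 0.234) lies below Stat2 (0.462) and Irf9 (0.367), and in M32 and M83 the medians (1.58 and 1.70) lie above control.

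The genes whose pattern over the 4 libraries was most like that of Stat2 or Irf9 were named by the root mean square difference of centred log2 CPM, without regard to function. For Stat2 they were Trim30a (0.0605), Zc3h6 (0.106), Idua (0.118), Tgfb3 (0.126) and Ttc26 (0.129). Trim30a, an interferon-inducible gene of the ISGF3 target list, had 168 counts in M8, 609 in M32 and 611 in M83, against 350 in control. For Irf9 they were Ganc (0.0244), Trim12c (0.0322), Cyp2j6 (0.0623), Cdkn3 (0.0885) and Ifi27 (0.0949). Ifi27, an interferon-inducible gene, had 458 counts in M8, 1135 in M32 and 1976 in M83, against 1257 in control. Ifi27 and Tgfb3 lie on chromosome 12, whose median log2 ratio of -0.52 was the lowest of any chromosome in M8. In M8 Ganc had only 38 counts, Cyp2j6 30, Idua 47, Ttc26 49, Trim12c 54 and Zc3h6 55. The likeness of these genes thus carries a large counting error, and 4 libraries leave many genes with a similar pattern.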

How the data were processed

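Poly(A)-selected RNA of 4 samples was sequenced (Illumina NextSeq, per the labels' protocols). The deposited table holds unnormalised whole-number counts, 1 column per sample. The submitters' processing notes name the build GRCm38. No aligner, counting tool, annotation or strand setting is named in these sources. Positions and exon lengths are from GENCODE vM21, which has the same build and holds 41434 of the 41457 row identifiers. Promoters are from RefSeq.

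The 3 lines were tested against control with edgeR 4.0.16 (R 4.3.3, quasi-likelihood F-test, TMM factors, filterByExpr, Benjamini-Hochberg adjustment over 13576 genes), which leaves 2 residual degrees of freedom. DESeq2 1.42.0 was the other tool. Single lines were compared as TMM-scaled ratios with exact Clopper-Pearson 95% intervals (scipy 1.17.1). Medians over chromosomes and lists use log2 CPM with a prior count of 2, given here as ratios unless log2 is named. Counts carry no molecular identifiers, so intervals and floors (3 counts) cover counting error only. The labels do not say that the triplicates were separate cultures.

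The 9 genes, the gene lists and the rules were chosen with earlier results of these data known. Some items are not reported here. Named from each list were up to 4 genes with the largest log2 ratio to control, in either direction, in any line and at least 50 counts in a library. Rnf31, Tmem50b, Oasl1, Rsad2, Ifih1, Irf5, the fibroblast and keratin marker genes, Gm21970 and 1700084C06Rik were named after their values were seen. Not every gene the rules named is reported. Alternatives were other size factors, no filter, DESeq2, each line left out, a 1.5-fold rule, at least 200 counts and the longest transcript as length. The fit was tested on simulated data. There control was drawn with the same spread as the lines, so that test says nothing about the spread of the real control.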

Additional observations from a re-analysis of the deposited data

How the results depend on the processing

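No gene of the 9 passed under any alternative of the fit of the lines against control, namely other size factors, library size only, no filter, DESeq2 or leaving out a line. Over all genes edgeR called 1 gene, 2 with no filter on low counts, and DESeq2 40. With 1 line left out the log2 difference ran from -0.65 to 0.16 for Irf9, from -0.022 to 0.062 for Jak1 and from -0.011 to 0.15 for Ifngr1, so the direction of these 3 rested on single libraries. The number of the 9 genes on the same side of control in every line used ran from 2 to 5 above and from 0 to 2 below when a line was left out. Leaving out a line makes this condition easier to meet by construction. Of single lines against control, 2 calls became 5 with the 1.5-fold rule, which admits smaller differences by construction. All 108 ratios of the 9 genes recomputed with DESeq2's size factors or library size alone stayed inside their main 95% intervals, and calls at 2-fold did not change in number. With the longest transcript as length, the mean level of the lines was 8.94 CPM per kilobase for Ifnar1, 10.05 for Ifngr1, 26.3 for Jak1 and 3.13 for Tyk2, each more than 1 SD above its value per exon union, and Jak1 then lay above Jak2 in every library. The median log2 ratio of chromosome 16 in M83 was -0.47 with library size alone and -0.57 among genes of at least 10 CPM. No paired analysis was possible because control has 1 sample and shares fewer than 2 replicate numbers with the lines. With 1 library per line, the spread between cultures of a line is unknown.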
